A study of Mus musculus with 6 samples.

Results

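Bile acid synthesis was followed through 10 enzymes in the liver of Sirt7 knockout and wild-type mice: Cyp7a1, Cyp8b1, Cyp27a1, Cyp7b1, Hsd3b7, Akr1d1, Amacr, Acox2, Slc27a5 and Baat. They are 10 of the 12393 genes on the array, chosen by name, and each was read from its brightest probe set carrying that symbol alone. All 10 had a mean log2 value of at least 4, the level set for testing, and 0 probe sets carried a member together with another symbol. SIRT7 is a nuclear NAD-dependent deacylase, and the study's title links it to MYC activity and tumorigenesis. The 3 knockout livers lacked SIRT7 and the 3 wild-type livers carried the wild-type Sirt7 allele. All were said to have had the same treatment conditions, and the labels name no strain, age, sex, diet, time of dissection or design of the deletion. Whether the 3 samples of a group were separate animals is not stated in so many words, so the p-values cover only the variation among these samples, part or all of which may be technical.

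Hepatocytes turn cholesterol into bile acids by a classic route, opened by the microsomal hydroxylase CYP7A1, and by an alternative route, opened by the mitochondrial hydroxylase CYP27A1. Both routes share enzymes that reshape the sterol ring, peroxisomal enzymes that shorten the side chain, and a final pair that joins the acid to taurine or glycine. Bile acids returning from the gut lower Cyp7a1 through the receptor FXR (Nr1h4), the repressor SHP (Nr0b2) and, in mice, the intestinal hormone FGF15 acting on FGFR4 and beta-Klotho (Klb).

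Sirt7 itself had log2 expression values of 2.38, 3.11 and 2.86 in knockout livers, against 9.85, 9.80 and 9.57 in wild-type livers. The log2 value fell by 6.96 (SE 0.23, adjusted p = 3.99e-06 by limma). Array medians lay between 5.69 and 5.77. Correlations across the 8343 genes tested were 0.962 to 0.984 within groups and 0.949 to 0.979 between groups, so the groups were not set apart by them. On the first principal component (45.7% of the variance) knockout replicate 1 stood at 36.2, beyond the other 2 knockout livers at 16.4 and -5.00, while wild-type replicate 3, at 5.87, stood away from the other wild-type livers at -25.1 and -28.3. The 9 hepatocyte markers on the array were all above the testing level, and their summed level (log2 of the sum) was 15.73 to 16.18 in knockout and 15.91 to 16.11 in wild-type livers. Of the cholangiocyte markers 3 of 7 on the array passed that level, and Epcam, Cftr, Muc1 and Cldn7 were below it; the summed level was 6.78 to 6.98 in knockout and 6.90 to 7.21 in wild-type livers. In bulk liver, fewer cells of a type and less RNA per cell cannot be told apart.

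None of the 10 enzymes passed the threshold of a limma adjusted p under 0.05 over all genes, a count of 0 against a background of 0.024% of the genes tested. At an unadjusted p under 0.05 there was 1 member, Amacr, where 6.46% of all tested genes had such a p. It was also the only member whose groups did not overlap, 1 of 10 and lower in knockout, where 9.74% of all tested genes did not overlap (5.48% lower and 4.27% higher). These shares for the members are near the background. The differences of 8 members were below 0 and those of 2, Akr1d1 and Baat, above 0, where 45.4% of all tested genes were above 0. The members' median was -0.19, beside -0.032 over all genes tested. An ordinary 2-sample test also called 0 members after adjustment and 1 before it. The split of signs rested on single livers: without knockout replicate 1 there were 5 differences above 0 and 5 below, with a median of -0.074, and without knockout replicate 3 the median was -0.40. Without wild-type replicate 2 the median was -0.078.

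**Figure D1:**
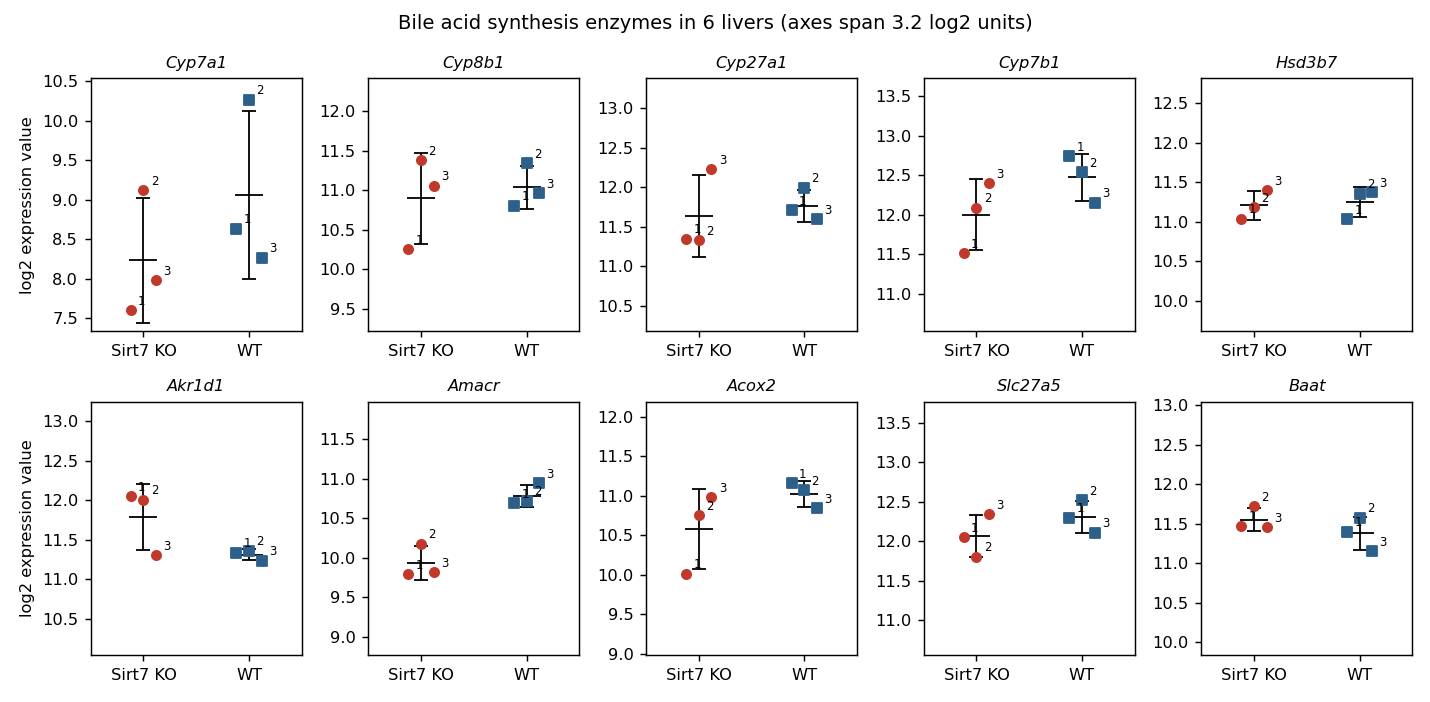
Log2 expression values (vertical axis) of the 10 enzymes in Sirt7 knockout livers (red circles) and wild-type livers (blue squares). Numbers are replicates, and bars are the mean and SD of 3 livers. In Amacr, every knockout value, 9.80 to 10.18, lies under every wild-type value, 10.69 to 10.95, and the groups of the other 9 genes overlap.

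The classic route begins with Cyp7a1, the rate-limiting enzyme of bile acid synthesis. Its log2 expression value was 7.60, 9.12 and 7.98 in knockout livers, against 8.63, 10.27 and 8.27 in wild-type livers. Knockout replicate 2 lay above 2 of the 3 wild-type livers, so the groups overlapped. The difference was -0.82 (SE 0.55, 95% interval -2.07 to 0.43, limma adjusted p = 0.797), which spans 0.238 to 1.35 of the wild-type level. Cyp7a1 was the least even of the 10 enzymes between livers of 1 group. Its residual SD was 0.938 log2 units, and 1.46% of all tested genes had a larger one. Without wild-type replicate 2 the difference was -0.22, and without knockout replicate 2 it was -1.26.

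A second, dimmer Cyp7a1 probe set gave 3.89, 5.38 and 4.14 in knockout livers, against 5.08, 5.56 and 5.06 in wild-type livers. It differed by -0.76 (SE 0.37, limma adjusted p = 0.809), close to the first probe set. The deviations of both from their own means had the same sign in 4 of 6 livers. Wild-type replicate 2 was the highest liver by both probe sets and knockout replicate 1 the lowest by both.

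Cyp8b1, the hydroxylase that commits sterols to cholic acid, had log2 values of 10.25, 11.38 and 11.06 in knockout livers, against 10.81, 11.34 and 10.96 in wild-type livers. Knockout replicate 1 was the lowest of all 6 livers, while knockout replicate 2 was the highest and knockout replicate 3 lay above 2 of the 3 wild-type livers. The difference of -0.14 (SE 0.30, 95% interval -0.83 to 0.55, limma adjusted p = 0.935) turned to 0.18 without knockout replicate 1. Cyp8b1 and Cyp7a1 shared their extremes in part: in both, knockout replicate 1 was lowest and knockout replicate 2 and wild-type replicate 2 were the highest livers of their groups.

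The promoter of Cyp8b1 is shown because its transcription is known to depend on the hepatocyte factor HNF4A, measured on the same arrays and given further on. The window is RefSeq's for GRCm38.p6, chr9:121916256-121916555 on the minus strand, 250 bases before the gene start and 50 from it on, with matches to any of 5 searched motifs in capitals.
Cyp8b1: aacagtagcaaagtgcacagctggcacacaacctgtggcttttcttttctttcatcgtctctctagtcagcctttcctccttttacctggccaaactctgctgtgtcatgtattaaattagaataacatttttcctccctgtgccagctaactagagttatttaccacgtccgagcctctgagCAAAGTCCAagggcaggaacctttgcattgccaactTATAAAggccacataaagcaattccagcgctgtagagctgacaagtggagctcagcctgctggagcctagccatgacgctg
The motifs, read on both strands, were the HNF4A site CAAAGTCCA, the TATA box TATAAA, the nuclear receptor core site AGGTCA, the E-box CACGTG bound by MYC and clock factors, and the D-box TTATGTAA bound by DBP. Cyp8b1 held CAAAGTCCA from base 184 and TATAAA from base 220 of the window, with no overlap. Of 32851 promoter windows of that length, 0.475% held CAAAGTCCA, 13.6% TATAAA, 16.3% AGGTCA, 7.15% CACGTG and 0.938% TTATGTAA. The table held windows for 5 of the members, Cyp8b1, Cyp27a1, Hsd3b7, Akr1d1 and Acox2, and those of Cyp27a1, Hsd3b7 and Acox2 matched none of the 5 motifs. Cyp7a1, Cyp7b1, Amacr, Slc27a5 and Baat had no entry there.

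Both enzymes of the alternative route had differences below 0 that did not pass. Cyp27a1, which oxidises the sterol side chain in mitochondria, had log2 values of 11.35, 11.33 and 12.23 in knockout livers, against 11.71, 11.99 and 11.60 in wild-type livers. Knockout replicate 3 was the highest of all 6 livers and the other 2 knockout livers were the lowest. The difference was -0.13 (SE 0.27, 95% interval -0.76 to 0.49, limma adjusted p = 0.933), and it lay between -0.43 and 0.0225 in fits without 1 array.

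Cyp7b1, the oxysterol hydroxylase that follows Cyp27a1 and is known to be higher in male than in female mouse liver, read 11.51, 12.09 and 12.41 in knockout livers, against 12.74, 12.54 and 12.15 in wild-type livers. Knockout replicate 3 lay above wild-type replicate 3, so the groups overlapped. Its difference was -0.48 (SE 0.27, 95% interval -1.09 to 0.14, limma adjusted p = 0.796), against -0.23 without knockout replicate 1 and -0.68 without knockout replicate 3. The second Cyp7b1 probe set differed by -0.48 as well (SE 0.32, limma adjusted p = 0.809), with deviations of the same sign in 6 of 6 livers. The summed level of the 8 male-biased liver genes on the array was 14.43 to 14.87 in knockout and 14.87 to 14.94 in wild-type livers. Of 7 tested, 6 had a difference below 0, with a median of -0.21, where 45.4% of all tested genes were above 0. The other, Ugt2b38, differed by 3.19 (SE 1.44, limma adjusted p = 0.773). It read 9.15, 8.12 and 8.20 in knockout livers, against 9.27, 4.32 and 2.30 in wild-type livers. The 3 tested female-biased genes had a mean deviation of 1.90, 0.677 and -1.11 in knockout replicates 1 to 3 and of -1.57, -0.885 and 0.989 in wild-type replicates 1 to 3; Cyp2b13, Cyp3a44, Cux2 and Acot3 were under the testing level. In both groups the order of the livers by this mean deviation was the reverse of their order by Cyp7b1. Singly, Cyp2b9 had that order in both groups, Hao2 only in wild type and Cyp17a1 in neither group. The part of sex-biased expression in the Cyp7b1 values was not tested.

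**Figure D2:**
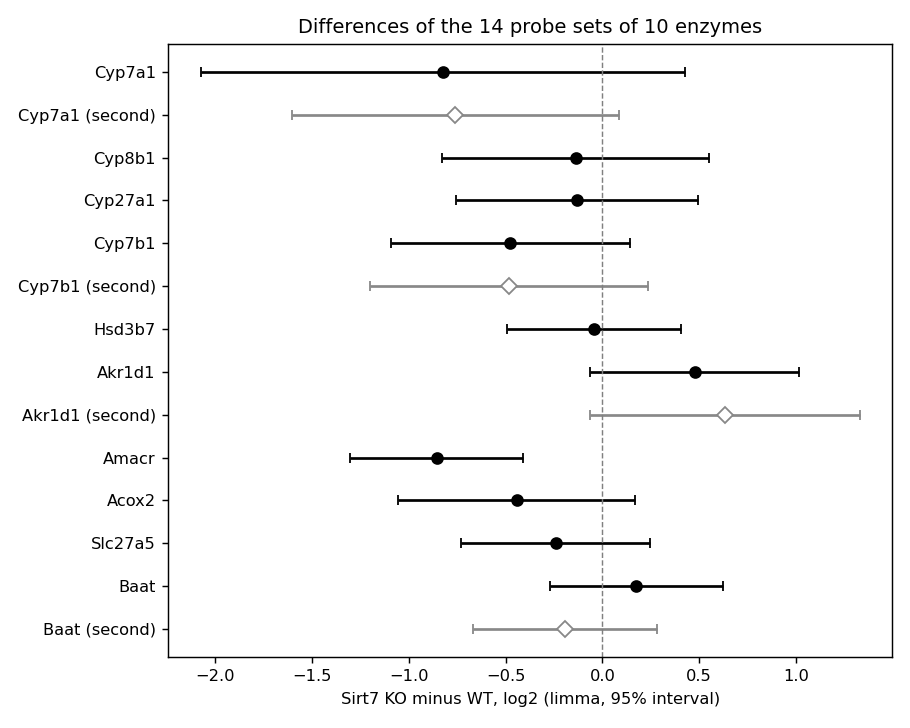
Difference in log2 value, Sirt7 knockout minus wild type (horizontal axis), with limma's 95% interval, for the 14 probe sets of the 10 enzymes. Black points are the probe sets used and open diamonds are second probe sets. The interval of Amacr, -1.30 to -0.41, is the only one of the 14 that leaves out 0, and its adjusted p was 0.544.

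The ring-modifying enzymes did not point the same way. Hsd3b7, the dehydrogenase that both routes need, had log2 values of 11.04, 11.18 and 11.40 in knockout livers, against 11.03, 11.35 and 11.37 in wild-type livers. The groups covered nearly the same range, and the difference was -0.044 (SE 0.20, 95% interval -0.49 to 0.41, limma adjusted p = 0.973). That interval allows 0.710 to 1.33 of the wild-type level.

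Akr1d1, the reductase that gives bile acids their bent ring system, had the highest difference of the 10. Its log2 values were 12.05, 12.004 and 11.30 in knockout livers, against 11.33, 11.36 and 11.23 in wild-type livers. Knockout replicates 1 and 2 stood above all wild-type livers, whereas knockout replicate 3 lay within their narrow range. The difference was 0.48 (SE 0.24, 95% interval -0.062 to 1.02, limma adjusted p = 0.775). A second Akr1d1 probe set read 11.04, 10.68 and 9.84 in knockout livers, against 9.90, 9.67 and 10.10 in wild-type livers, with knockout replicates 1 and 2 again above the rest. It differed by 0.63 (SE 0.31, limma adjusted p = 0.809). Without knockout replicate 3 the first probe set's difference was 0.72.

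The Akr1d1 promoter is shown as that of the member with the highest difference. It is RefSeq's window for GRCm38.p6, chr6:37529923-37530222 on the plus strand, with motif matches in capitals.
Akr1d1: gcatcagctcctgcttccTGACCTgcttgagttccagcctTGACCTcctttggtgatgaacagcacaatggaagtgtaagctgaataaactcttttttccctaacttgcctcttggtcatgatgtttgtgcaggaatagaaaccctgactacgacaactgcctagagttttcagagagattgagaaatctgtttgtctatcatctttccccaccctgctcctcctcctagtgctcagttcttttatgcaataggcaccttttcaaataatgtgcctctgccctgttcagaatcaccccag
It held the core site AGGTCA on the opposite strand from bases 19 and 41, and none of the other 4 motifs. A match is letters in a window and was not tested as a binding site.

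Both genes of side chain shortening had differences below 0. Amacr encodes the racemase that converts the bile acid intermediates to the form peroxisomes can shorten. Its log2 values were 9.80, 10.18 and 9.82 in knockout livers, against 10.69, 10.72 and 10.95 in wild-type livers. All 3 knockout livers lay under all 3 wild-type livers, with a gap of 0.51 between the highest knockout and the lowest wild-type value. The difference was -0.86 (SE 0.20, 95% interval -1.30 to -0.41), or 0.553 of the wild-type level (0.406 to 0.753), with an unadjusted p of 0.00201 and a limma adjusted p of 0.544. It lay between -0.98 and -0.77 in fits without 1 array, with adjusted p-values of 0.239 to 0.9998. Amacr varied little within groups, with a residual SD of 0.182 that 79.4% of all tested genes exceeded. It was measured by 1 probe set.

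Acox2, the peroxisomal oxidase that acts next on the side chain, had log2 values of 10.02, 10.75 and 10.98 in knockout livers, against 11.16, 11.08 and 10.84 in wild-type livers. Knockout replicate 1 was far below the rest, and knockout replicate 3 lay above wild-type replicate 3. The difference of -0.44 (SE 0.27, 95% interval -1.05 to 0.17, limma adjusted p = 0.796) was -0.16 without knockout replicate 1.

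The conjugation step showed small differences. Slc27a5, which encodes the bile acid CoA ligase, had log2 values of 12.05, 11.81 and 12.35 in knockout livers, against 12.30, 12.52 and 12.11 in wild-type livers. The groups overlapped, and the difference was -0.24 (SE 0.21, 95% interval -0.73 to 0.25, limma adjusted p = 0.839). It was -0.11 without knockout replicate 2 and -0.38 without knockout replicate 3. Baat, which encodes the transferase that adds taurine or glycine, read 11.47, 11.72 and 11.46 in knockout livers, against 11.40, 11.58 and 11.15 in wild-type livers. This difference was 0.18 (SE 0.20, 95% interval -0.27 to 0.62, limma adjusted p = 0.863), and a second Baat probe set gave -0.19 (SE 0.21, limma adjusted p = 0.865). The direction for Baat therefore depended on the probe set, and the first probe set's difference was 0.064 without wild-type replicate 3 and 0.28 without wild-type replicate 2.

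The livers of 1 group differed among themselves across the pathway. Knockout replicate 1 held the lowest value of 5 of the 10 enzymes (Cyp7a1, Cyp8b1, Cyp7b1, Amacr and Acox2) and the highest of 1, Akr1d1. Averaged over the 10 enzymes, the deviation from each gene's own mean was -0.40, 0.042 and -0.017 in knockout replicates 1 to 3, against 0.066, 0.36 and -0.051 in wild-type replicates 1 to 3. Most of the distance between the groups in this average came from knockout replicate 1 and wild-type replicate 2. Of the hepatocyte zone lists, the 9 tested pericentral genes had a median difference of -0.060 and the 7 periportal genes one of 0.010, with 0 of either at an unadjusted p under 0.05 by limma.

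**Figure D3:**
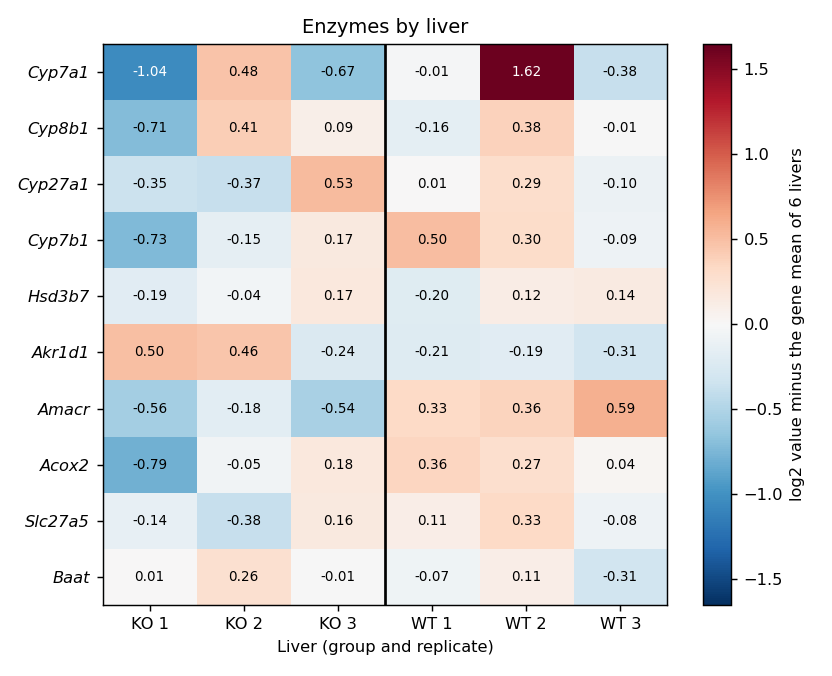
Log2 value of each enzyme minus its own mean over the 6 livers (colour and printed number), with livers in columns, knockout left of the line and wild type right of it. Knockout replicate 1 is the lowest liver for Cyp7a1 (-1.04), Cyp8b1 (-0.71), Cyp7b1 (-0.73), Amacr (-0.56) and Acox2 (-0.79) and the highest for Akr1d1 (0.50).

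Of 20 other genes of bile acid synthesis, 17 were on the array and 15 were tested. Limma called 0 higher and 0 lower, and before adjustment 3 were higher and 0 lower at p under 0.05, against a background of 3.04% higher and 3.42% lower. Cyp39a1, a hydroxylase for an oxysterol made chiefly in brain, read 9.75, 9.10 and 8.72 in knockout livers, against 7.67, 7.73 and 8.77 in wild-type livers. Only wild-type replicate 3 reached the knockout range, and the difference was 1.13 (SE 0.36, limma adjusted p = 0.746). Hsd17b6, a microsomal sterol dehydrogenase gene, differed by 0.58 (SE 0.24, adjusted p = 0.769). Acot8, a peroxisomal acyl-CoA thioesterase gene, differed by 0.57 (SE 0.24, adjusted p = 0.772), with knockout values of 8.64, 8.01 and 8.30, against 7.39, 7.79 and 8.04 in wild type. Cyp2c70, the mouse enzyme that makes muricholic acids, was nearly level, with a mean of 12.59 ± 0.045 in knockout and 12.60 ± 0.061 in wild-type livers (SD, n = 3 each) and a difference of -0.011 (95% interval -0.40 to 0.38).

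Of 22 regulators of the pathway, 19 were on the array and 18 tested, with 0 called by limma in either direction. At an unadjusted p under 0.05, 1 was higher and 2 were lower (16.7%), where 6.46% of all tested genes had such a p. Fgfr4, the hepatocyte receptor of FGF15, had log2 values of 7.03, 8.25 and 8.06 in knockout livers, against 8.83, 9.19 and 8.44 in wild-type livers. No knockout liver reached the wild-type range, a separation that 5.48% of all tested genes had in this direction. The difference was -1.05 (SE 0.34, limma adjusted p = 0.746). A second Fgfr4 probe set gave -1.15 (SE 0.46), and its groups overlapped. The co-receptor gene Klb differed by -0.42 (SE 0.28, adjusted p = 0.797).

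The bile acid receptor gene Nr1h4 was nearly level, at 10.75 ± 0.23 in knockout and 10.73 ± 0.087 in wild-type livers (SD, n = 3 each), a difference of 0.016 (95% interval -0.42 to 0.46). Nr0b2, which encodes the repressor SHP, read 11.05, 10.38 and 11.08 in knockout livers, against 10.17, 10.50 and 10.06 in wild-type livers. Knockout replicates 1 and 3 were above all wild-type livers and knockout replicate 2 was within their range, and the difference was 0.59 (SE 0.25, limma adjusted p = 0.772). Within each group the liver with the highest Cyp7a1 value stood out in Nr0b2 in opposite ways: knockout replicate 2 had the lowest knockout value, and wild-type replicate 2 the highest wild-type value.

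**Figure D4:**
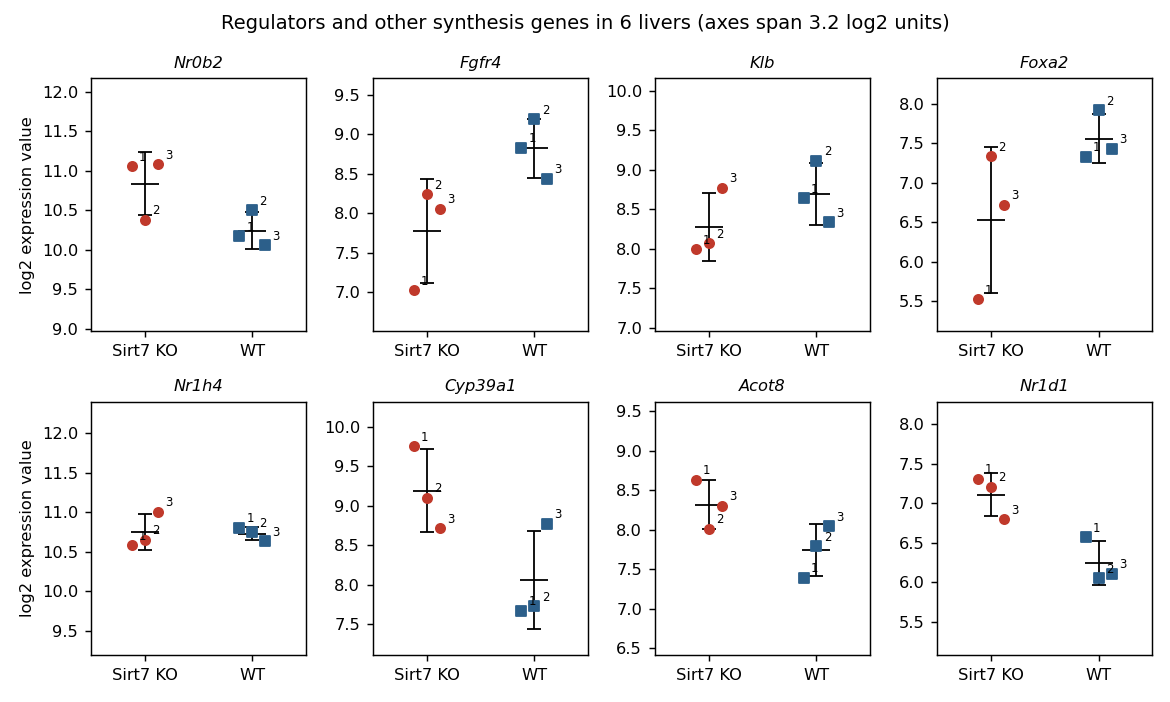
Log2 expression values (vertical axis) of regulators and other synthesis genes in Sirt7 knockout livers (red circles) and wild-type livers (blue squares). Numbers are replicates, and bars are the mean and SD of 3 livers. Fgfr4 values lie between 7.03 and 8.25 in knockout and between 8.44 and 9.19 in wild-type livers. Nr1h4 values lie between 10.58 and 11.01 in knockout livers, a range that takes in the wild-type values of 10.64 to 10.81.

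Among the hepatocyte factors that drive these genes, Foxa2 had log2 values of 5.53, 7.34 and 6.72 in knockout livers, against 7.33, 7.92 and 7.43 in wild-type livers. Knockout replicate 1 was far below the other livers, and the difference was -1.03 (SE 0.42, limma adjusted p = 0.769). For Hnf4a the brightest probe set differed by -0.18 (SE 0.20, adjusted p = 0.863), while its 3 other probe sets differed by 0.37, 0.27 and 0.41. Nr5a2, which encodes the Cyp7a1 and Cyp8b1 activator LRH-1, differed by -0.16 (SE 0.21, adjusted p = 0.879) on its brightest probe set and by -0.54, -0.87 and -1.07 on the others. On the probe set with -1.07 the knockout livers read 5.67, 5.69 and 6.42, against 7.16, 7.17 and 6.66 in wild-type livers. The groups did not overlap (SE 0.27, limma unadjusted p = 0.00298, adjusted p = 0.656). They did not overlap on the probe set with -0.87 either (unadjusted p = 0.0103, adjusted p = 0.785). On the brightest probe set and the one with -0.54 they overlapped. Of all tested genes, 5.48% were lower without overlap. For both factors the size of the difference, and for Hnf4a its sign, depended on the probe set.

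Cyp7a1 is transcribed with a daily rhythm, so the clock genes are given beside it. Of 15 tested, limma called 0. With p under 0.05 before adjustment, 2 were higher, Nr1d1 and Dbp, and 1 was lower, Npas2. That was 20.0% of the list, where 6.46% of all tested genes had such a p. Nr1d1, the gene of REV-ERB alpha, differed by 0.86 (SE 0.23, adjusted p = 0.678), and Dbp by 0.64 (SE 0.27, adjusted p = 0.772). Npas2, a clock activator gene, read 5.02, 6.47 and 6.13 in knockout livers, against 7.76, 6.88 and 6.79 in wild-type livers, a difference of -1.27 (SE 0.40, adjusted p = 0.746). On the probe sets used, the groups did not overlap in any of these 3 genes, which were named for their p. A second, dimmer Dbp probe set differed by 0.50 (SE 0.33, limma adjusted p = 0.809), and its groups overlapped. Over the 15 clock genes, 3 were higher and 2 lower without overlap, where 9.74% of all tested genes did not overlap. The part of the time of day in the Cyp7a1 values was not tested.

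Of the bile acid and sterol transporters, 10 were tested, with 0 called by limma. Where 6.46% of all tested genes had an unadjusted p under 0.05, 1 transporter did. It was Abcc2, the canalicular exporter of conjugates, at 10.27, 9.32 and 10.09 in knockout livers, against 10.73, 10.40 and 10.94 in wild-type livers. Every knockout value was under every wild-type value, as in 5.48% of all tested genes. The difference was -0.80 (SE 0.28, limma adjusted p = 0.760). In the transporter gene Abcb11 every knockout value was above every wild-type value, as in 4.27% of all tested genes. It differed by 0.16 (SE 0.18, adjusted p = 0.863). The median differences were -0.011 for the other synthesis genes, 0.042 for the regulators, 0.073 for the clock genes and 0.027 for the transporters. Each was nearer 0 than the -0.19 of the enzymes. Some of the other lists lay further below 0 than the enzymes. They were the 9 tested hepatocyte markers, at -0.23, the 2 pancreatic acinar markers, at -0.21, and the 7 male-biased genes, at -0.21. A difference between the lists was not tested.

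**Figure D5:**
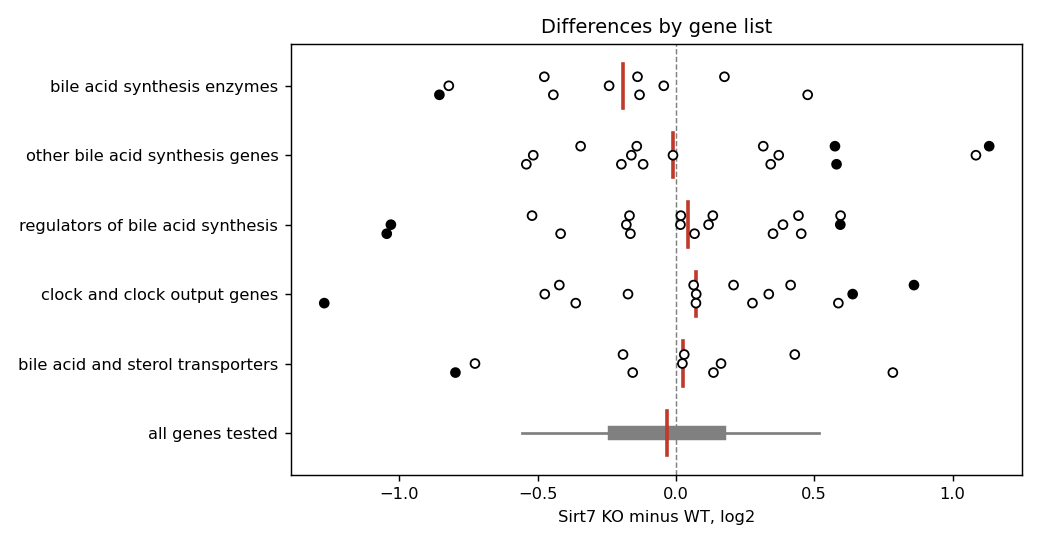
Difference in log2 value, Sirt7 knockout minus wild type (horizontal axis), of each tested gene of the 5 lists. Filled points have an unadjusted p under 0.05, none has an adjusted p under 0.05, and red bars are medians. The lowest row gives all 8343 genes tested, with the bar from the 25th to the 75th percentile (-0.22 to 0.16) and the line from the 5th to the 95th (-0.56 to 0.52).

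The genes whose values, centred on their own mean, lay closest to those of Cyp7a1 over the 6 livers were Hnf4aos, Osmr, Kdm5b, Rpgr and Ctrl. Their root mean square differences from Cyp7a1 were 0.419, 0.425, 0.427, 0.476 and 0.482 log2 units, where the median over 8333 other genes was 0.89. Hnf4aos, a transcript antisense to Hnf4a, had log2 values of 5.04, 5.97 and 5.19 in knockout livers, against 6.57, 6.92 and 5.31 in wild-type livers. The 5 were picked by likeness to the Cyp7a1 values, so shared extremes and a shared direction follow largely from that choice. Hnf4aos was lowest in knockout replicate 1 and highest in wild-type replicate 2, as Cyp7a1 was. It differed by -0.87 (SE 0.42, limma adjusted p = 0.775), and the differences of the 4 others lay between -0.81 and -0.38.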

How the data were processed

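Liver RNA of 3 Sirt7 knockout and 3 wild-type samples was hybridised to 6 1-colour Affymetrix arrays, and samples were grouped by title. The authors deposited log2 expression values per probe set, computed by GCRMA (version 2.20.0, under R 2.11.1), as the submitters' processing notes record. The log2 scale was read from the range of 0.841 to 13.969, and the GCRMA settings are not stated. GCRMA models background from probe sequence and compresses low values; no detection calls were used.

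The platform annotation gave gene symbols. Of 22626, those with 1 symbol (20380) were kept, and the brightest probe set by mean over 6 arrays stood for each of 12393 genes. Genes with a mean log2 value of at least 4 (8343) were compared, knockout minus wild type, by lmFit and eBayes of limma 3.58.1 (R 4.3.3; 2-sided, no block). A call needed a Benjamini-Hochberg adjusted p under 0.05. Second probe sets took their p from a fit over every probe set. The procedure was tested on simulated data. Errors of differences are moderated standard errors, intervals are 95%, and the error of a group mean is the SD of its 3 livers. The number of arrays limits the precision.

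The members and all gene lists were chosen with earlier results of these data known. Named genes were Sirt7, the members, genes of 4 pathway lists with an unadjusted p under 0.05, a set always shown (Nr1h4, Nr0b2, Nr5a2, Hnf4a, Fgfr4, Klb, Nr1d1, Dbp, Cyp2c70), and the 5 genes closest to Cyp7a1. Some genes of the sex-biased and cell type lists were named as well. Alternatives were other filters, probe set rules, normalization, weights, variance priors, a replicate block, an ordinary 2-sample test and fits without 1 array.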

Additional observations from a re-analysis of the deposited data

How the results depend on the processing

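The number of genes called, 2 in all, was 1 with the mean of a gene's probe sets, 4 with a trended variance prior, 0 with the ordinary 2-sample test (405 at an unadjusted p under 0.05) and 1748 (659 higher, 1089 lower) with array weights, which ran from 0.310 for knockout replicate 3 to 6.12 for knockout replicate 2; without 1 array it lay between 1 and 38 (without wild-type replicate 3). Members called stayed at 0 in fits without 1 array and were 3 with array weights. These were Akr1d1 (0.64, limma adjusted p = 0.0208), Amacr (-0.61, adjusted p = 0.0217) and Slc27a5 (-0.57, adjusted p = 0.0294). With array weights the members' median was -0.42, and 1748 of all 8343 genes tested were called. Knockout replicates 1 and 3 had weights of only 0.514 and 0.310 there, so knockout replicate 2 dominated its group. All other alternatives called 0 members. Without 1 array the median lay between -0.40 and -0.074. Signs turned for Cyp8b1 with array weights (0.11) and for Baat with the mean of its probe sets (-0.0082) or its second probe set (-0.19). Without 1 array, Cyp8b1 lay between -0.38 and 0.18, Cyp27a1 between -0.43 and 0.0225 and Hsd3b7 between -0.16 and 0.041. Of 144 alternative values for single members, 131 kept direction and side of the threshold; the cause of the other 13 was not tested. Same-numbered livers of the groups did not deviate together (correlations across genes of -0.089, -0.091 and -0.19). The replicate block left 2 genes and 0 members called, with a median of -0.19. With the block Cyp7a1 had an unadjusted limma p of 0.0160 (adjusted p = 0.878). Members at an unadjusted p under 0.05 numbered 2 with the block, 2 with the trended prior, 4 without knockout replicate 3 and 5 with array weights. Of all 8343 genes tested, 394, 527, 1381 and 3273 had such a p in these fits, in that order. In the main fit and all other alternatives there was 1 such member, with 539 of all genes tested in the main fit.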
